A study of Mus musculus with 4 samples.

Results

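The genes described here encode 7 RNA-binding proteins: Hnrnpd, Hnrnpul2, Hnrnph2 and Ptbp1 of the hnRNP kind, Tial1 of the TIA and Elavl1 of the ELAV kind, and Fam120a, which belongs to none of these families and holds 69 of the 195 peaks. They were chosen by gene name, with earlier results of these data known. A peak was counted for a gene when the RefSeq transcript in the peak's name belonged to it. This gave 97 of the 50983 SRSF1 peaks and 98 of the 56336 SRSF2 peaks, together 0.182% of all peaks and 1.14% of those with a RefSeq gene name. The data are CLIP-seq, in which protein is crosslinked to RNA in living cells, precipitated, and the attached RNA fragments are sequenced.

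Both libraries came from mouse embryonic fibroblasts (MEFs). The SRSF1 library was made from SRSF1 tet-repressible MEFs and the SRSF2 library from SRSF2 tet-repressible MEFs, both kept without tetracycline and both precipitated with the same antibody against the HA tag. Each protein was therefore measured in its own line, and protein and line cannot be told apart. There was 1 library per protein, so no value has a replicate error and the proteins were not compared by a test. The remaining 2 of the 4 samples, SRSF1 CLIP after siRNA treatment (control, or directed at SRSF2), were not analysed here. Of 8 fibroblast markers, 3 had peaks under a gene name (Col1a1, Postn and Thbs1, with 91 SRSF1 and 64 SRSF2 peaks together). None of the macrophage, endothelial, neuronal or skeletal muscle markers did, and of 5 epithelial markers Krt19 had 1 SRSF1 peak. Most peaks lie in units without a gene name, so a gene without a named peak was not shown to be unbound.

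SRSF1 and SRSF2 are SR proteins, which bind exons of pre-mRNA and help the splicing machinery to recognise them. The hnRNP proteins bind many of the same transcripts and often act against SR proteins in the choice of exons. TIA and ELAV proteins bind U-rich and AU-rich stretches and also act on the stability and translation of mature mRNA. Transcripts of such proteins are themselves often spliced in alternative ways, in several cases under the control of their own product.

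All 7 genes carried listed peaks of both SR proteins, in near-equal numbers over the group. The genes were chosen with earlier results known, so that all 7 had both proteins may reflect the choice. Of the 528 named genes with at least 10 peaks, 513 had at least 3 peaks of each protein. Both proteins are thus usual in genes with this many peaks, as 6 of the 7 have. Over all 2155 named genes the share with both was not counted. With only peaks at or above each list's median score, Hnrnph2 kept 0 SRSF1 and 2 SRSF2 peaks, and the other 6 genes had both proteins. Fam120a, an RNA-binding scaffold protein, had 30 SRSF1 and 39 SRSF2 peaks. Hnrnpd, also known as AUF1 and a binder of AU-rich elements, had 21 and 23. Tial1, which encodes the TIA-family protein TIAR, had 15 of each, and Hnrnpul2, an hnRNP U-like protein, had 11 of each. Ptbp1, the polypyrimidine tract binding protein and a widely acting splicing repressor, had 8 SRSF1 and 5 SRSF2 peaks. Elavl1, which encodes HuR and stabilises mRNAs with AU-rich elements, had 10 and 3, and Hnrnph2, an X-linked binder of G-rich runs, had 2 of each.

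SRSF1 made up 49.7% of the peaks of the group (exact 95% binomial interval 42.5 to 57.0), against 47.5% of both whole lists. Elavl1 had the highest SRSF1 share, 76.9% (46.2 to 94.96), followed by Ptbp1 with 61.5% (31.6 to 86.1). Fam120a had the lowest, 43.5% (31.6 to 56.0). The intervals of all 6 genes with at least 10 peaks included the share of the whole lists. Among all 528 named genes with at least 10 peaks, 4.92% had an interval that excluded it. With so few peaks per gene only large departures could have been seen, and the shares of neighbouring genes in this order did not differ beyond their intervals. The intervals cover counting error only.

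**Figure D1:**
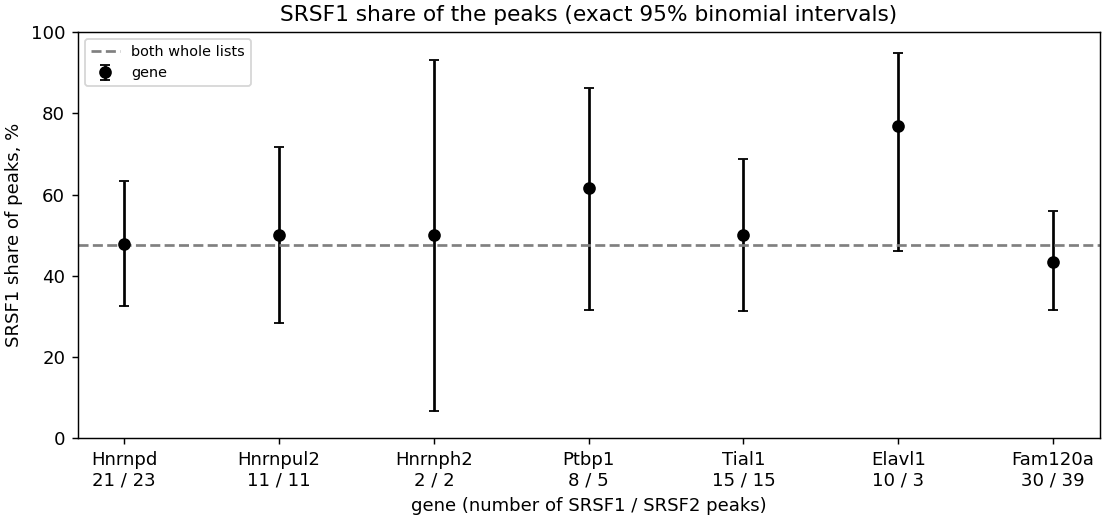
SRSF1 share of the peaks (y axis, percent) for each gene (x axis, with its numbers of SRSF1 and SRSF2 peaks). Points are shares, bars are exact 95% binomial intervals, and the dashed line is the 47.5% of both whole lists, which every bar crosses. Elavl1 stands highest at 76.9%, with an interval that reaches down to 46.2%.

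The peaks of the 2 proteins fell on the same short stretches in these transcripts more often than in named genes at large. An SRSF2 peak shared at least 1 nt, on the same strand, with 61 of the 97 SRSF1 peaks, 62.9% (52.5 to 72.5). Over all peaks with a RefSeq gene name the share was 37.2%. In the other direction 65 of 98 SRSF2 peaks were overlapped by an SRSF1 peak, 66.3% (56.1 to 75.6), against 33.5% over all named genes. That pool includes many genes with few peaks. Over the 528 named genes with at least 10 peaks the median share per gene was 42.5% for SRSF1 and 35.7% for SRSF2. The upper quartiles were 58.5% and 50%. For the 6 genes of the group with at least 10 peaks the medians were 63.1% and 74.6%. The SRSF2 median includes Ptbp1 and Elavl1, both at 100% with only 5 and 3 SRSF2 peaks. The median distance from a peak's midpoint to the nearest midpoint of the other protein was 10 nt for SRSF1 peaks and 10.5 nt for SRSF2 peaks, where named genes as a whole had 65.3 and 91.5 nt. Within 500 nt a partner was found for 87.6% of the SRSF1 and 85.7% of the SRSF2 peaks of the group, against 63.3% and 60.7% over all named genes.

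The score, a whole number the authors gave each peak, was also higher in these genes. Its median was 11 for SRSF1 and 12 for SRSF2 peaks, against 7 and 8 over all named genes, and the median width was 22 nt against 19 nt in both lists. The lowest listed score also differed by gene. Its median over the 528 named genes with at least 10 peaks was 6 for SRSF1 and 7 for SRSF2. In the 6 such genes of the group it was 8.5 and 10.5. What part this has in the higher medians was not tested. Peaks with higher scores were overlapped more often in other named genes too, so the shares were also set side by side by score. At scores of 8 to 11, 61.1% of the SRSF1 peaks of the group were overlapped (43.5 to 76.9), against 42.03% in other named genes. At scores of 12 to 19 the SRSF1 values were 67.9% (47.7 to 84.1) and 60.1%, and at 20 or more 85.7% (57.2 to 98.2) and 78.6%. For SRSF2 the same classes gave 56.4% (39.6 to 72.2) against 33.2%, 75% (58.8 to 87.3) against 49.8%, and 92.3% (64.0 to 99.8) against 74.7%. At scores of 4 to 7 SRSF1 had 42.1% (20.3 to 66.5) against 24.8%, and SRSF2 had 1 of 6 peaks, 16.7%, against 19.7%. The intervals excluded the value of the other genes at scores of 8 to 11 for both proteins, narrowly for SRSF1, and at 12 to 19 for SRSF2, and included it in the remaining classes. They treat peaks of one gene as independent, which neighbouring peaks need not be, so they may be too narrow. The genes also differ between classes. Most SRSF2 peaks at 8 to 11 were from Fam120a, and all SRSF1 peaks at 20 or more were from Hnrnpd and Tial1. What part score, width and the spacing of peaks have in the difference was not tested beyond these classes.

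The share differed among the genes. Hnrnpd had the highest SRSF1 value, with 17 of 21 SRSF1 peaks overlapped (81.0%, 58.1 to 94.6) and 19 of 23 SRSF2 peaks (82.6%, 61.2 to 95.05). Of the 528 named genes with at least 10 peaks, 25 reached its SRSF1 share and 11 its SRSF2 share, itself included. The SRSF1 share of Tial1 was reached by 84 of these genes, that of Hnrnpul2 by 92, of Ptbp1 by 106, of Fam120a by 129 and of Elavl1 by 365. Tial1 had 10 of 15 in both directions (66.7%), Hnrnpul2 7 of 11 in both (63.6%), and Fam120a 18 of 30 (60%) and 20 of 39 (51.3%). Ptbp1 and Elavl1 were lopsided: all 5 SRSF2 peaks of Ptbp1 and all 3 of Elavl1 were overlapped, but only 5 of 8 and 3 of 10 of their SRSF1 peaks. Elavl1, with 30% (6.67 to 65.3), was the only one of the 7 genes with an SRSF1 value below that of named genes as a whole, and its interval includes it.

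**Figure D2:**
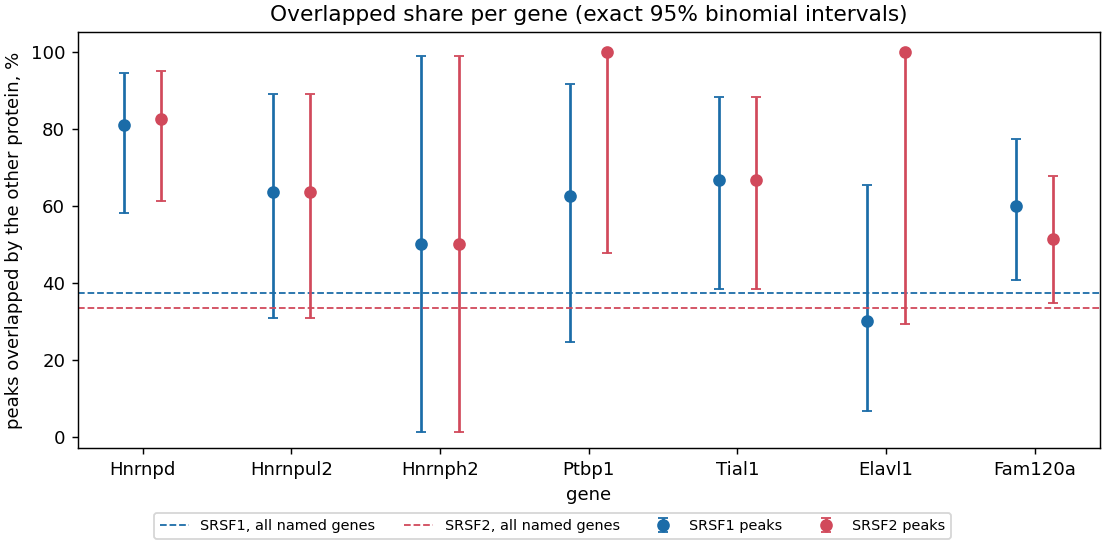
Percent of peaks overlapped by a peak of the other protein (y axis) for each gene (x axis), SRSF1 peaks in blue and SRSF2 peaks in red, with exact 95% binomial intervals as bars. The dashed lines are the values over all named genes, 37.2% for SRSF1 and 33.5% for SRSF2. The whole intervals of Hnrnpd, Tial1 and Fam120a lie above the lines, and the SRSF1 point of Elavl1 lies below its line. The lines pool many genes with few peaks. Only Hnrnpd has both intervals above the medians of named genes with at least 10 peaks, 42.5% and 35.7%, which are not drawn.

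Along each gene the peaks stood in short groups. Peaks of either protein with gaps of at most 200 nt were chained, which gave 68 groups with a median length of 35 nt. Both proteins were present in 38 of the groups, which held 159 of the 195 peaks (81.5%). Other genes were not grouped in this way, so these counts have no share over all named genes beside them. SRSF1 alone was found in 17 groups and SRSF2 alone in 13, and 26 of the 68 groups were a single peak, which could not have shown both. Peak numbers that are not listed were missing in both lists for Hnrnpd (9 of SRSF1 and 3 of SRSF2), Fam120a (9 and 12), Tial1 (5 and 2) and Elavl1 (5 and 1), and in the SRSF1 list for Ptbp1 (3) and Hnrnpul2 (2). A group with 1 protein, or a gap, may thus have held numbered peaks that are not listed. Positions below are distances in the direction of transcription from the first listed peak of either protein, which is not the start of the gene. Coordinates are on mm9.

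**Figure D3:**
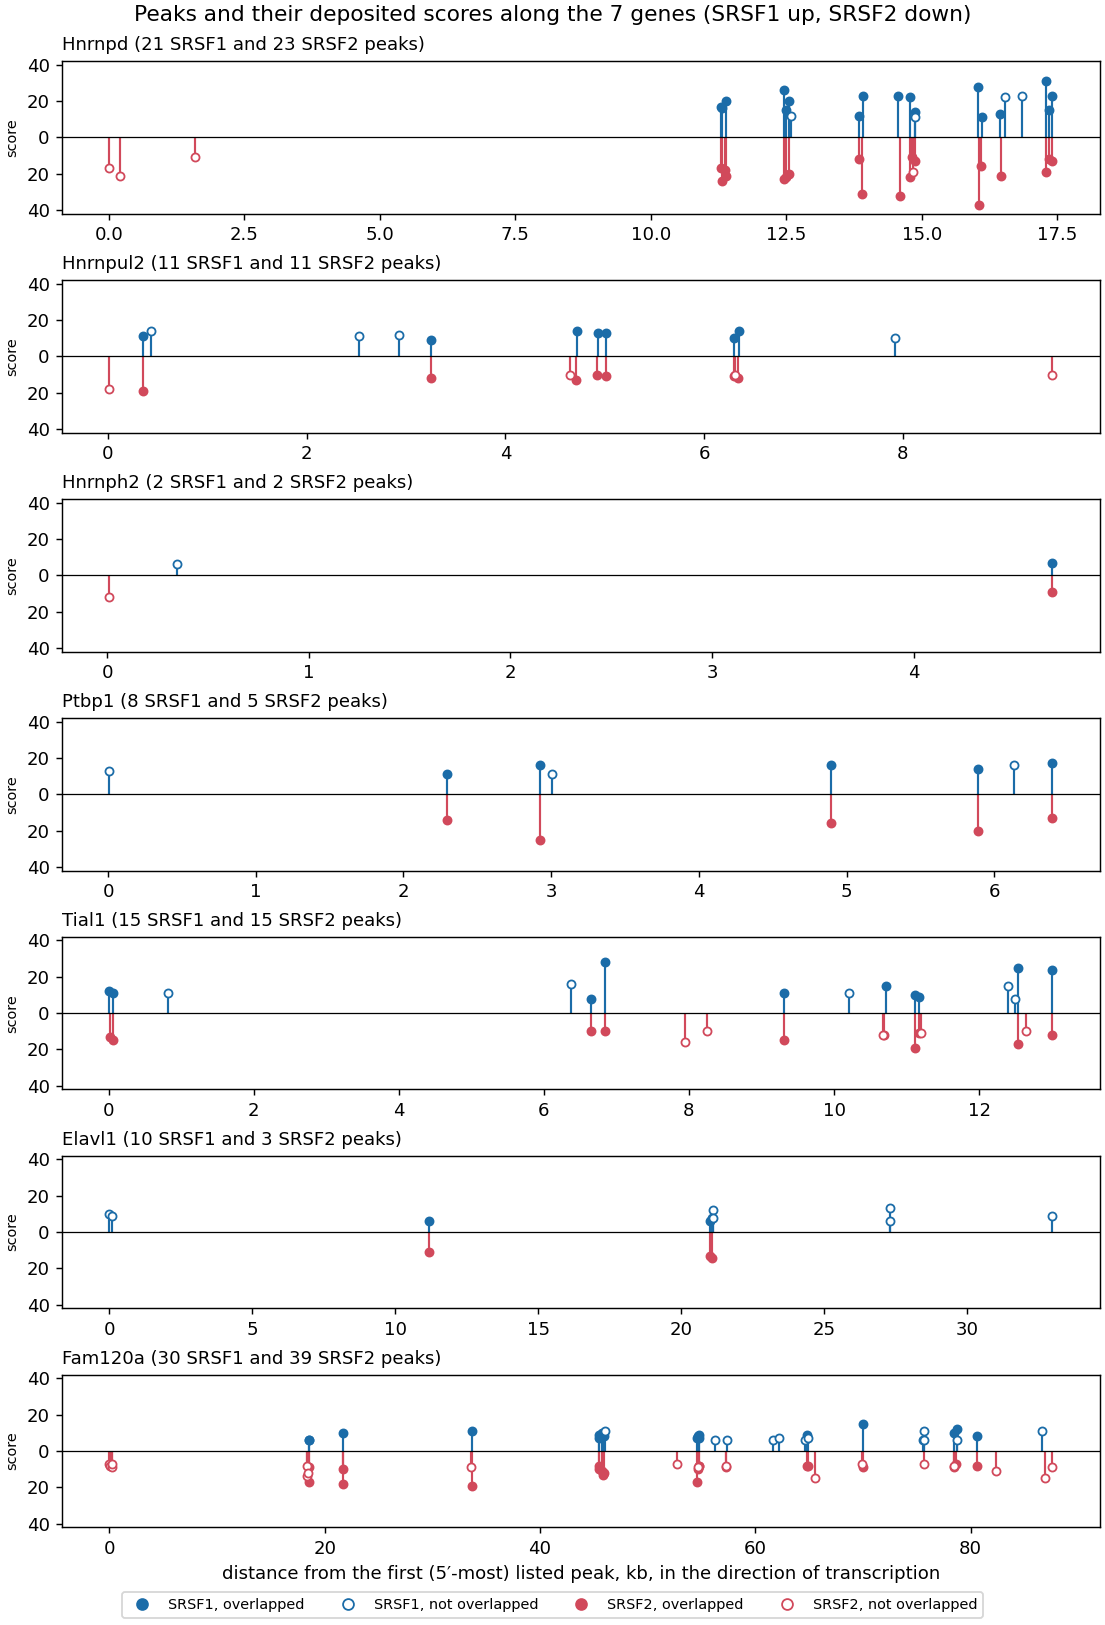
Every peak of the 7 genes, placed by its distance in kb from the first listed peak in the direction of transcription (x axis; the scale differs between panels). SRSF1 scores point up and SRSF2 scores down, filled points are overlapped by the other protein and open points are not. In Hnrnpd, Hnrnpul2, Hnrnph2 and Fam120a the first group holds SRSF2 alone, and in Ptbp1 and Elavl1 the first group holds SRSF1 alone. Peaks listed as nongenic, such as the SRSF1 peak beside the first Hnrnph2 peak, are not drawn.

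Hnrnpd (chr5:100390226-100407643, minus strand) had its first peaks from SRSF2 alone and a dense stretch of shared peaks toward the 3′ end. The SRSF2 peaks at 0.01 kb (score 17), 0.206 kb (score 21, 61 nt wide) and 1.58 kb (score 11) lay 9705.5 nt or more from an SRSF1 midpoint. From 11.28 kb on, 21 SRSF1 and 20 SRSF2 peaks lay in 8 groups, 7 of them with both proteins. The group at 11.28 kb, 131 nt long, held 3 SRSF1 and 4 SRSF2 peaks, all overlapped. The group at 12.44 kb held 4 and 3, that at 13.84 kb 2 of each, and that at 14.55 kb, the longest with 333 nt, 4 and 5. The last group, at 17.28 kb, held 3 peaks of each protein, all overlapped.

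The strongest peaks of Hnrnpd differed between the proteins although each was shared. The SRSF2 peak with the highest score, 37, lay at chr5:100391579-100391610, at percentile 99.2 of the SRSF2 list. It met the second-ranked SRSF1 peak of the gene (score 28), with 25 nt in common. The SRSF1 peak with the highest score, 31, lay at chr5:100390337-100390362 in the last group and met an SRSF2 peak that ranked 12 of 23 (score 19). SRSF2 had scores of 32 and 31 at 14.59 and 13.90 kb, where the SRSF1 partners had 23 each. SRSF1 peaks without an overlap included those at 16.53 kb (score 22) and 16.84 kb (score 23), 69 and 376 nt from the nearest SRSF2 midpoint. No Hnrnpd peak of either list scored below 11.

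**Figure D4:**
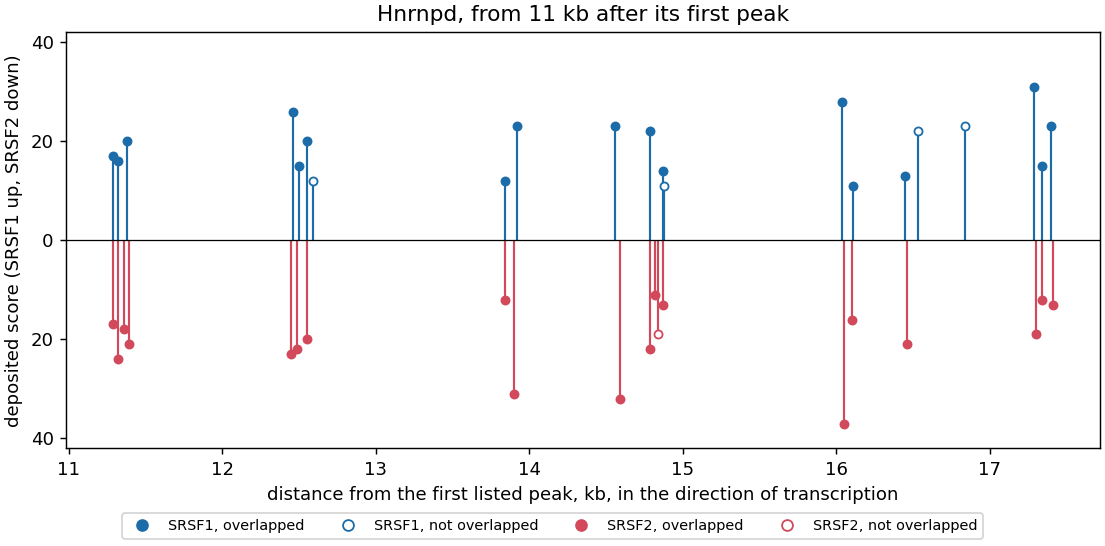
The part of Hnrnpd from 11 kb after its first peak, with distance in kb in the direction of transcription (x axis) and deposited score (y axis, SRSF1 up and SRSF2 down). Filled points are overlapped and open points are not. SRSF2 reaches 37 at 16.05 kb and SRSF1 reaches 31 at 17.29 kb, and 17 of 21 SRSF1 points are filled.

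Hnrnpul2 (chr19:8894851-8904360, plus strand) began and ended with an SRSF2 peak and had its shared peaks in between. The first peak, SRSF2 with a score of 18, lay 338 nt from the nearest SRSF1 midpoint. The next SRSF2 peak, at 0.352 kb, had the gene's highest SRSF2 score, 19, and shared 25 nt with an SRSF1 peak of score 11. SRSF1 stood alone in 3 groups, at 2.51, 2.92 and 7.91 kb, with scores of 11, 12 and 10. The group at 4.65 kb was the longest with 379 nt and held 3 SRSF1 and 4 SRSF2 peaks, and the group at 6.29 kb held 2 and 3. SRSF2 scored 18 and 19 at these first positions and 10 to 13 at its other 9 peaks. SRSF1 scores ran from 9 to 14, and the highest value, 14, was shared by 3 peaks in separate groups.

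Hnrnph2 (chrX:131135825-131140527, plus strand) had few peaks. SRSF2 had a peak of score 12 at the first position and SRSF1 one of score 6 at 0.348 kb, which did not overlap. The SRSF2 peak counts as a group without SRSF1 only by its name, because an SRSF1 peak of score 6, listed as nongenic on the same strand, lay 26 nt away between midpoints. At the other end of the span, at 4.69 kb, peaks of scores 7 (SRSF1) and 9 (SRSF2) shared 23 nt. The 2 peaks of each protein set no share with any precision (interval 1.26 to 98.7%).

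Ptbp1 (chr10:79319639-79326045, plus strand) had 5 sites with both proteins, and each lay within 3.5 nt between midpoints. These sites were at 2.30, 2.93, 4.90, 5.89 and 6.39 kb. The SRSF2 scores were 14, 25, 16, 20 and 13 in that order, and the SRSF1 scores were 11, 16, 16, 14 and 17. The SRSF2 peak of score 25, at chr10:79322548-79322582, was thus its highest in the gene, while the highest SRSF1 peak was the last one, at chr10:79326020-79326045. SRSF1 had 3 more peaks. The first of the gene (score 13) lay 2286 nt from the nearest SRSF2 midpoint, and those at 3.01 kb (score 11) and 6.14 kb (score 16) lay 82.5 and 248 nt away.

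Tial1 (chr7:135585524-135598544, minus strand) began and ended with shared peaks. At the first group 2 SRSF1 peaks (scores 12 and 11) met 2 SRSF2 peaks (scores 13 and 15). A wide gap followed, with a single SRSF1 peak at 0.816 kb and none of either protein until 6.35 kb. The highest SRSF1 score, 28, lay at chr7:135591684-135591708 and coincided to 0.5 nt between midpoints with an SRSF2 peak of score 10, among the lowest of that protein in the gene. The highest SRSF2 score, 19, lay at chr7:135587403-135587453 and shared 40 nt, the most of any pair here, with an SRSF1 peak of score 10. Toward the 3′ end SRSF1 scored 25 and 24 at 12.54 and 13.01 kb, where SRSF2 had 17 and 12. SRSF2 alone was found at 7.95 kb (score 16) and 8.25 kb (score 10), 1059.5 nt or more from a listed SRSF1 midpoint. The listed SRSF1 peaks on either side are numbered 15 and 12, so numbered SRSF1 peaks that are not listed lay between them.

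Elavl1 (chr8:4289846-4322839, minus strand) had SRSF1 peaks along 33.0 kb and SRSF2 peaks only within 9902 nt in the middle of that span. SRSF1 stood alone at the first group (scores 10 and 9), at 27.28 kb (scores 13 and 6) and at the last peak (score 9, 32.98 kb), each 6224 nt or more from an SRSF2 midpoint. Both proteins were found at 11.2 kb, with 1 peak each, and in the group at 21.01 kb, with 4 SRSF1 and 2 SRSF2 peaks. The SRSF2 scores were 11, 13 and 14, and the SRSF1 peaks they met had low scores for the gene, 6, 6 and 8. The highest SRSF1 score, 13 at chr8:4295541-4295560, was 6224 nt from the nearest SRSF2 midpoint. The listed SRSF2 peaks of Elavl1 are numbered 2 to 4 from the 3′ end, so 1 numbered peak that is not listed lay on the 3′ side of them, where SRSF1 stands alone.

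Fam120a (chr13:48975409-49063025, minus strand) had the longest span, 87.6 kb, and the most groups, 22, of which 12 had both proteins. The first group, 284 nt long, held 4 SRSF2 peaks (scores 7 to 9) and no SRSF1 peak, and the nearest SRSF1 midpoint was at least 18238 nt away. The next 5 groups, from 18.35 to 45.74 kb, all had both proteins. They included the 3 SRSF2 peaks at 18.55, 21.70 and 33.67 kb with scores of 17, 18 and 19, the last being its highest in the gene (chr13:49029336-49029370). The SRSF1 peaks they met scored 6, 10 and 11. SRSF1 had its highest score, 15, at 69.98 kb (chr13:48993027-48993057), where the SRSF2 peak scored 9, and its second highest, 12, at 78.70 kb, where SRSF2 had 7. The last 4 groups, from 82.32 kb on, each held a single listed peak, 3 of SRSF2 and 1 of SRSF1, without overlap. By the peak numbers, peaks of both proteins that are not listed also lay toward this end.

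Peaks of Fam120a without an overlap, some of them in groups with both proteins, had a lower median score in the SRSF1 list and less so in the SRSF2 list. The 12 SRSF1 peaks without an overlap had a median score of 6 and a median width of 10.5 nt, against 9 and 23.5 nt for the 18 overlapped ones. The 19 such SRSF2 peaks had a median score of 9 and 16 nt, against 9.5 and 30.5 nt. Over the 7 genes the medians without and with an overlap were 11 and 12 for SRSF1 and 10 and 13 for SRSF2. A wider peak meets another more easily, since 1 shared nt was enough.

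In none of the 6 genes with at least 3 peaks of each protein did the highest-scoring SRSF1 peak overlap the highest-scoring SRSF2 peak. Among all 513 named genes with at least 3 peaks of each and 10 in all, the highest peaks coincided in 28.7%. A count of 0 among 6 genes cannot tell these genes from that share. The highest SRSF2 peak was overlapped by some SRSF1 peak in all 6, where 67.8% of the 513 genes showed this. A highest SRSF1 peak was overlapped by some SRSF2 peak in 5 of the 6 (Hnrnpd, Ptbp1, Tial1, Fam120a, and 2 of the 3 tied peaks of Hnrnpul2, but not Elavl1), against 71.9% of the 513.

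Over the 7 genes there were 66 overlapping pairs, with a median of 18 nt in common, and the midpoints of 49 (74.2%) lay within 10 nt of each other. Over all 20654 pairs of the lists that share was 83.9% and the median 17 nt. No pair had identical ends. The sources used here do not say what the score measures, so the 2 scores of a pair are set side by side and not compared in size.

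**Figure D5:**
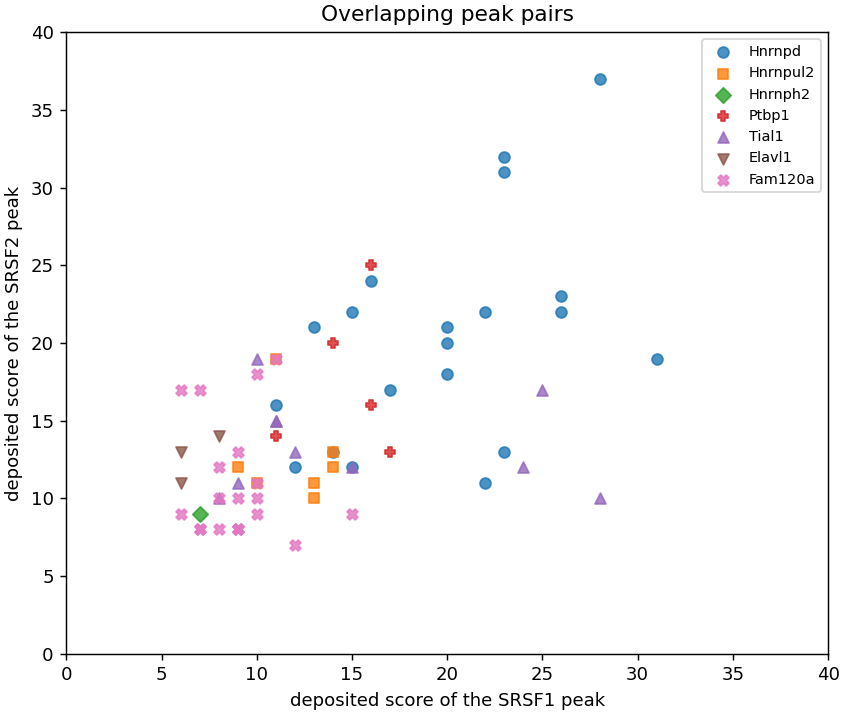
Deposited scores of the 66 overlapping pairs, SRSF1 on the x axis and SRSF2 on the y axis, with a symbol for each gene; pairs with the same scores fall on one point. Hnrnpd pairs reach 31 for SRSF1 and 37 for SRSF2. The Tial1 pairs with SRSF1 scores of 24 to 28 have SRSF2 scores of 10 to 17, and the Fam120a pairs have SRSF1 scores of at most 15.

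Related genes were looked up from lists, which include the genes of the group. The share of all genes with a named peak was not counted, so the numbers of listed genes with peaks have no such share beside them. Of 30 hnRNP genes, 5 had peaks under a RefSeq name: Hnrnpd, Hnrnpul2, Ptbp1, Hnrnph2, and Pcbp1, a poly(C)-binding protein, with 1 SRSF2 peak of score 16. Of 6 TIA and ELAV genes, Tial1 and Elavl1 had any. Fam120b, the relative of Fam120a, had 7 SRSF1 and 8 SRSF2 peaks, of which 1 of each overlapped, where Fam120a had 18 of 30 and 20 of 39. Of 33 other RNA-binding proteins of mRNA stability and splicing, 4 had peaks. Fxr2, of the fragile X protein family, had 11 SRSF1 and 16 SRSF2 peaks with 7 of each overlapped, and Zfp36l2, a decay factor for AU-rich mRNAs, had 3 and 2 with 1 of each overlapped. Zfp36 had 1 SRSF2 peak and Zfp36l1 had 1 SRSF1 peak. The 8 genes with at least 10 peaks in these lists were the 6 of the group described above, Fam120b and Fxr2. None had an SRSF1 share whose interval excluded that of the whole lists, where 4.92% of named genes with at least 10 peaks did.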

How the data were processed

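The authors deposited 1 peak list for each of the SRSF1 and SRSF2 libraries, on mm9 per the submitters' processing notes. Each peak has a chromosome, start, end, strand, a name with a host unit and a peak number, and a deposited score, a whole number of at least 4. Aligner, peak caller, threshold and the meaning of the score were not given in the sources used here. Read depth is unknown, and scores were ranked only within a list. Symbols came from a RefSeq table of another build (GRCm38), used for names only, in which 2155 of 2169 RefSeq accessions matched. No exon, intron, UTR or sequence was therefore assigned to a peak.

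Overlap meant at least 1 nt on the same strand, computed in Python 3.11.15 and checked against bedtools 2.31.1 and on simulated peaks. Distances are between midpoints, and coordinates are 1-based. Shares carry exact (Clopper-Pearson) 95% intervals from scipy 1.17.1, which cover counting error only, and peaks of one gene share their transcript. The genes, the lists and the alternatives were chosen with earlier results of these data known. The grouping at 200 nt, its alternatives, the nearest partner within the same gene and the score classes were chosen after seeing the data. In each gene the highest-scoring, overlapping, first and last peaks were named, and in each list of related genes up to 6 genes with most peaks.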

Additional observations from a re-analysis of the deposited data

How the results depend on the processing

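The SRSF1 share of the group's peaks was 45.9% with peaks at or above the list's median score, 51.7% with peaks within 10 nt merged and 49.7% with every same-strand peak in the span, since no peak of another unit lay there. At or above the median score Hnrnph2 lost both SRSF1 peaks (0%), and the SRSF1 share of Fam120a was 32.7% in place of 43.5%. The overlapped share ran from 60.8% to 71.1% for SRSF1 and from 60.9% to 74.5% for SRSF2 over the other definitions of overlap, width and score. The share over all named genes was set beside it for 1 of these definitions only, midpoints within 50 nt. By that definition the group had 71.1% and 74.5%, and all named genes 47.2% and 44.1%. Whether the difference holds under the others was not tested. With each gene left out in turn it ran from 57.9% (without Hnrnpd) to 66.7% (without Elavl1) for SRSF1 and 61.3% (without Hnrnpd) to 76.3% (without Fam120a) for SRSF2. The median distance between nearest ends was 0 nt for both proteins, because overlapping peaks have a distance of 0 nt by that definition, and it stayed at 10 and 10.5 nt with partners from the same gene only. Groups with both proteins made up 55.9%, and 56% and 65.4% with gaps of at most 100 and 500 nt. Ranking by score times width also left 0 of 6 genes with overlapping highest peaks. Bounds from a gene annotation were not run, because none of mm9 was at hand. Hnrnph2, Elavl1 and Ptbp1 have too few peaks for more than a description. No paired analysis was possible because each protein had 1 library and no test was run.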

Other observations

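Peaks beside the genes were listed under other units. Directly upstream of the first Hnrnph2 peak, on the same strand, an SRSF2 peak of score 17 (chrX:131135782-131135824) abutted it without a gap and overlapped an SRSF1 peak of score 6 (chrX:131135797-131135821); both were called nongenic by the authors. Upstream of Elavl1, on the opposite strand, 4 SRSF1 peaks and 1 SRSF2 peak lay between 2475 and 4979 nt from its first peak, in an unnamed cluster. Within 5000 nt of Hnrnpd, Tial1 and Fam120a there was no peak of another unit on either strand.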
